A study of Rattus norvegicus with 15 samples.

Results

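The chemokines and interleukins described here are 8 rat genes, Ccl2, Ccl3, Cxcl1, Cxcl2, Cx3cl1, Il1b, Il6 and Spp1, followed across arteries of 2 rat strains. Every probe set whose platform gene symbol was one of these names was taken as a member, which gave 13 of 8740 probe sets for 7 of the 8 genes, out of 4736 genes named on the array. Cxcl1 had 0 probe sets under that rule and was not analysed here. Of the 13 probe sets, 12 were bright enough to be tested, as were 6512 in all. The probe set that did not pass, E01884cds_s_at for Il1b, lay below its array's 20th percentile of signal on 10 of 15 arrays.

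The RNA came from rat mesenteric arteries, the vessels that supply the gut, hybridised to 15 Affymetrix arrays. The strains were the spontaneously hypertensive rat (SHR), an inbred line that develops high blood pressure, and the Wistar Kyoto rat (WKY), its usual comparison line with normal pressure. Each strain contributed control arteries and collateral arteries, the latter from a model in which neighbouring arteries are occluded so that the remaining one carries more flow. The WKY control group held 3 arrays and each of the other 3 groups held 4, and the series title puts the question as one of impaired collateral growth in SHR. The labels give no age, sex or time after occlusion. Nothing in them ties arrays to animals, and a p-value here reflects the spread between arrays, which may be technical. The groups are whole vessels, in which fewer cells of a type and less RNA per cell cannot be told apart.

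Chemokines are small secreted proteins that guide leukocytes along a gradient by binding receptors on the cell surface. Cx3cl1 (fractalkine) is unusual in being made as a membrane-bound molecule on activated endothelium, where it captures cells carrying Cx3cr1. Ccl2 draws monocytes through Ccr2, Ccl3 draws monocytes and other leukocytes through Ccr1, and Cxcl1 and Cxcl2 draw neutrophils through Cxcr2. Il1b and Il6 are cytokines of acute inflammation, and Spp1 (osteopontin) is a secreted matrix protein that binds integrins and Cd44. Many of these genes are textbook targets of the transcription factor NF-kappaB, and monocyte recruitment is a known part of collateral growth.

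RefSeq promoter windows, 250 bases before to 50 after the start on the GRCr8 build, were found for 6 of the 8 genes; Ccl2 and Ccl3 had no entry. They were searched on both strands for the kappaB-type letters GGNNTTNCC and the AP-1-type letters TGANTCA. The kappaB-type letters stood in 3 of the 6 windows (Cxcl1, Cxcl2 and Il6), against 16.03% of 33469 promoters of the same length. The AP-1-type letters stood in 0 of 6, against 7.33%. A match describes the letters only and is not evidence of binding. The 120 bases before the start are shown for 3 measured genes, Cxcl2 and Il6 because they held matches, in capitals, and Cx3cl1 because it carried the strain difference with the smallest p among the members and its window held no match. All 3 genes lie on the minus strand and are written 5′ to 3′ in the direction of the gene, Cxcl2 at chr14:17467256-17467375, Il6 at chr4:5894576-5894695 and Cx3cl1 at chr19:10242821-10242940.
Cxcl2: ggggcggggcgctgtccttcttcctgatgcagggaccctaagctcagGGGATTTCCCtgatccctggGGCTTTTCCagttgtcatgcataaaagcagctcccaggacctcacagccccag
Il6: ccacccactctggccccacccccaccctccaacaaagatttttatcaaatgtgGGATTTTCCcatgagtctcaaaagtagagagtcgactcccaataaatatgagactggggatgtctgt
Cx3cl1: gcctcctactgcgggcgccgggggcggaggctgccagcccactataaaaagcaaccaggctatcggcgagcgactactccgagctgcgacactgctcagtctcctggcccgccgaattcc
In Cxcl2 the first run of capitals is a pair of overlapping matches, GGGATTTCC beginning 73 bases before the start and GGATTTCCC beginning 72 bases before it, and the second is GGCTTTTCC at 53 bases. The Il6 match, GGATTTTCC, begins 67 bases before the start.

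Signals were scaled by the authors to a common mean and are given here as log2 signal, so that 1 unit is a doubling. The array SHR collateral 3 stood apart: its Spearman correlation with the other 14 arrays was 0.496 to 0.657, against 0.805 to 0.931 among those 14, and its 20th percentile of signal was 171.2. It had the highest value of its group for 6 of the 12 tested member probe sets and for 47.9% of all tested probe sets. RNA quality was read from control genes as the log2 ratio of their 3′ over their 5′ signal. This ratio was 1.71 to 2.31 in SHR control, 1.64 to 2.06 in SHR collateral, 2.07 to 2.38 in WKY control and 2.10 to 2.62 in WKY collateral arrays. The ratio was thus lower in SHR collateral than in either WKY group, which means more 5′ signal relative to 3′ signal there. Smooth muscle and fibroblast markers were high on every array, as the labelled tissue has it, with 5 of 7 smooth muscle markers measured and summed signals of 71200 to 294000.

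Cx3cl1 had lower mean signals in SHR than in WKY on all 3 of its probe sets, by 1.49-fold to 8.73-fold, and none passed the adjusted threshold. On AF030358_g_at the log2 signal was 12.73, 10.53 and 12.33 in WKY control arteries and 9.09, 9.52, 8.23 and 6.68 in SHR control arteries. It was 11.56, 10.49, 11.19 and 8.80 in WKY collateral arteries and 10.46, 9.90, 6.30 and 4.32 in SHR collateral arteries. All 4 SHR control arrays lay below all 3 WKY control arrays, while in collateral arteries SHR collateral 1 and 2 lay within the WKY range and SHR collateral 3 and 4 fell under it, below their own arrays' 20th percentile. The mean log2 signals in descending order were 11.87 ± 1.17 (SD, n = 3) in WKY control, 10.51 ± 1.22 (n = 4) in WKY collateral, 8.38 ± 1.25 (n = 4) in SHR control and 7.74 ± 2.93 (n = 4) in SHR collateral, and each neighbouring pair in that order overlapped.

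Averaged over vessel types, SHR minus WKY on this Cx3cl1 probe set was -3.13 ± 0.77 (SE; 95% interval -4.75 to -1.50), which is 8.73-fold lower, with limma's adjusted p = 0.0691 and rank 70 by p among 6512. The difference was -3.49 ± 1.13 in control arteries (adjusted p = 0.452) and -2.76 ± 1.05 in collateral arteries (adjusted p = 0.558). The adjusted p fell to 0.0222 without SHR collateral 1 and to 0.0336 without SHR collateral 2, so leaving out either array moved it past the threshold, and over all alternatives it ran from 0.0118 to 0.178. With array weights the difference shrank to -2.02, and without SHR collateral 3 it was -2.88 (adjusted p = 0.0982).

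AF030358_at, a Cx3cl1 probe set named for the same sequence record, gave 11.29, 10.16 and 11.16 in WKY control and 10.00, 9.68, 9.81 and 10.27 in SHR control arteries. In collateral arteries it gave 10.41, 10.53, 10.45 and 9.97 in WKY and 9.94, 10.19, 10.79 and 9.55 in SHR. WKY control 1 and 3 stood above all other arrays, which lay between 9.55 and 10.79, so the groups overlapped. The mean strain difference was -0.58 ± 0.23 (unadjusted p = 0.0243, adjusted p = 0.335). It was -0.93 ± 0.34 in control arteries and -0.22 ± 0.32 in collateral arteries.

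The Cx3cl1 probe set rc_AA800602_s_at gave 10.84, 10.54 and 11.08 in WKY control and 9.03, 9.96, 10.26 and 9.74 in SHR control arteries, again with no overlap. In collateral arteries it gave 10.76, 9.74, 11.68 and 9.74 in WKY and 9.56, 10.42, 12.02 and 9.18 in SHR, where the groups overlapped and SHR collateral 3 was highest of all arrays. The strain difference was -1.07 ± 0.57 in control arteries (adjusted p = 0.827), -0.18 ± 0.53 in collateral arteries and -0.63 ± 0.39 on average (adjusted p = 0.586). Across the 15 arrays the 3 Cx3cl1 probe sets had Spearman correlations of 0.443 to 0.671 with each other, and 0.618 to 0.767 without SHR collateral 3, so they followed each other only in part.

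**Figure D1:**
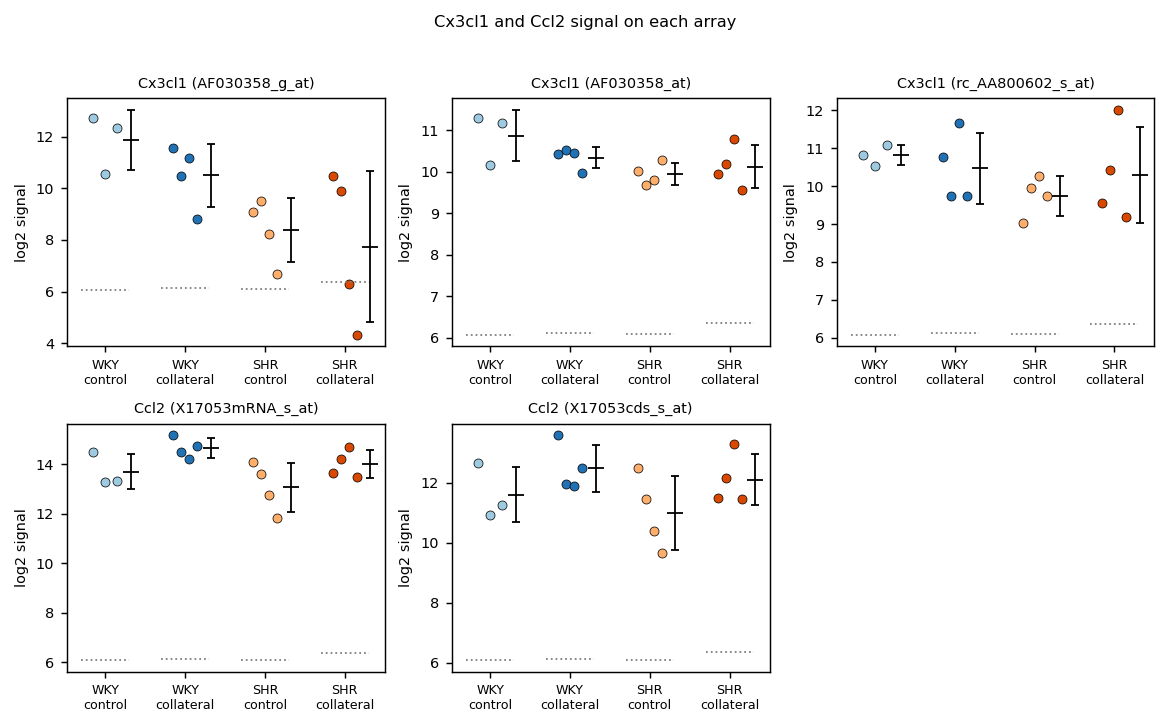
Log2 signal of the 3 Cx3cl1 and 2 Ccl2 probe sets on each of the 15 arrays (points, by group), with the group mean ± SD (black bars) and the group's median of the arrays' 20th percentiles (dotted lines). The 4 SHR control arrays lie below the 3 WKY control arrays on Cx3cl1 AF030358_g_at and rc_AA800602_s_at, and Ccl2 means are higher in collateral than in control arteries of both strains.

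The summed signal of 6 measured endothelial markers (of 9) was 3790 to 4470 in WKY control arrays and 1890 to 3000 in SHR control arrays. These sums did not overlap, but a sum of signals follows its brightest genes most. Taken gene by gene in control arteries, 4 of the 6 lay above 0 and 2 below, with a median of 0.09 against 0.02 over all tested probe sets. In collateral arteries the sums overlapped, at 2190 to 4690 in WKY and 1540 to 4240 in SHR. Of the 6 endothelial markers, 1 was lower past the adjusted threshold in the mean strain comparison, Icam2, an adhesion molecule, at -2.79 ± 0.42, and 4 lay above 0, among them Pecam1 at 0.70 ± 0.30 and Flt1 at 1.12 ± 0.41. The part of endothelial content or of RNA quality in the Cx3cl1 difference was not tested.

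Ccl2 had higher mean signals in collateral than in control arteries on both of its probe sets and in both strains, by 0.88 to 1.11 log2 units, without passing the adjusted threshold. On X17053mRNA_s_at the log2 signal was 14.52, 13.29 and 13.31 in WKY control and 15.19, 14.49, 14.22 and 14.73 in WKY collateral arteries. It was 14.10, 13.61, 12.74 and 11.84 in SHR control and 13.64, 14.20, 14.72 and 13.48 in SHR collateral arteries. WKY control 1 lay within the WKY collateral range and SHR control 1 and 2 within the SHR collateral range, so the groups overlapped in each strain. The means in descending order were 14.66 ± 0.41 (SD, n = 4) in WKY collateral, 14.01 ± 0.57 (n = 4) in SHR collateral, 13.71 ± 0.70 (n = 3) in WKY control and 13.08 ± 1.00 (n = 4) in SHR control, with overlap between all neighbours.

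Averaged over strains, collateral minus control was 0.94 ± 0.31 on this Ccl2 probe set (SE; 95% interval 0.28 to 1.60), a 1.92-fold higher signal, with unadjusted p = 0.00769 and limma's adjusted p = 0.807. It stayed between 0.74 and 1.15 when any 1 array was left out. X17053cds_s_at, the other Ccl2 probe set, gave 0.99 ± 0.41 (adjusted p = 0.923). Its log2 signal ran 12.66, 10.92 and 11.25 in WKY control, 13.59, 11.96, 11.90 and 12.50 in WKY collateral, 12.49, 11.45, 10.39 and 9.67 in SHR control and 11.51, 12.17, 13.30 and 11.45 in SHR collateral arteries. The pair of probe sets ordered the arrays almost alike, with a Spearman correlation of 0.954.

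The collateral difference of Ccl2 was estimated at nearly the same size in both strains. On X17053mRNA_s_at collateral minus control was 0.95 ± 0.46 in WKY and 0.94 ± 0.43 in SHR, and the strain difference of that change was -0.01 ± 0.63 (95% interval -1.34 to 1.31). On X17053cds_s_at the changes were 0.88 ± 0.61 and 1.11 ± 0.56 and their difference 0.22 ± 0.83. The SHR changes depended on SHR control 4, without which they were 0.53 and 0.66, and with array weights they were 0.56 and 0.57. SHR collateral 3 was the highest SHR collateral array on both Ccl2 probe sets, so both SHR changes were smaller without it, at 0.71 on X17053cds_s_at. The WKY change on X17053cds_s_at was 0.52 without WKY collateral 1, 0.54 without WKY control 2 and 1.41 without WKY control 1. These intervals reach past 1 log2 unit either way, so a strain difference of that size was not detectable with these arrays. SHR minus WKY for Ccl2, averaged over vessel types, was -0.64 ± 0.31 (adjusted p = 0.441) and -0.49 ± 0.41 (adjusted p = 0.721).

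Ccl3 (U22414_at) was a dim probe set, at or above its array's 40th percentile on 9 of 15 arrays. Its log2 signal was 7.31, 6.14 and 7.24 in WKY control, 7.96, 8.12, 5.87 and 8.13 in WKY collateral, 8.54, 7.85, 8.65 and 4.52 in SHR control and 7.80, 8.91, 10.02 and 5.73 in SHR collateral arteries. The fourth SHR arrays and WKY collateral 3 were low, the latter apart from the rest of its group, and all groups overlapped. Collateral minus control was 0.67 ± 0.69 and SHR minus WKY 0.54 ± 0.69, each smaller than its standard error.

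Cxcl2 (U45965_at) had group means close to each other: 9.62 ± 0.43 in WKY control, 9.49 ± 1.06 in SHR control, 9.44 ± 1.66 in SHR collateral and 9.43 ± 1.14 in WKY collateral arteries. The arrays within a group differed far more than that, from 7.28 in SHR collateral 4 to 11.23 in SHR collateral 2. SHR minus WKY was -0.07 ± 0.52 (95% interval -1.16 to 1.03) and collateral minus control -0.12 ± 0.52 (-1.21 to 0.97). Both intervals reach to about a doubling of Cxcl2 signal and its reverse.

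Il6 had lower group means in SHR than in WKY on both of its probe sets, with wide overlap. On M26744_at the log2 signal was 12.88, 11.38 and 10.76 in WKY control, 13.24, 11.50, 11.88 and 11.15 in WKY collateral, 10.11, 12.70, 10.55 and 8.87 in SHR control and 10.19, 12.06, 11.73 and 9.84 in SHR collateral arteries. SHR control 2 was as high as the WKY arrays and SHR control 4 the lowest of all. SHR minus WKY averaged over vessel types was -1.05 ± 0.51 (unadjusted p = 0.0538, adjusted p = 0.431), or 2.08-fold lower.

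The Il6 probe set M26745cds_s_at gave -1.42 ± 0.81 for the same comparison (adjusted p = 0.533). Its arrays spanned 5.86 to 10.58 in SHR control and 5.87 to 10.84 in SHR collateral arteries, against 9.03 to 10.34 in WKY control and 7.63 to 11.17 in WKY collateral arteries. Its lowest values were those of SHR control 4 and SHR collateral 4, the same 2 arrays that were lowest on M26744_at among their groups. Collateral minus control for Il6 was 0.34 ± 0.51 and 0.19 ± 0.81 on the 2 probe sets.

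Il1b was measured by 3 probe sets, of which only M98820_at was at or above its array's 40th percentile on most arrays (14 of 15). Its log2 signal was 9.92, 9.31 and 8.45 in WKY control and 10.95, 10.40, 9.89 and 11.09 in WKY collateral arteries. In SHR it was 10.64, 9.41, 8.79 and 7.44 in control and 9.89, 10.79, 10.15 and 7.78 in collateral arteries. In WKY the lowest collateral array lay just under the highest control array, and in SHR the groups overlapped throughout.

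Collateral minus control for Il1b on M98820_at was 1.36 ± 0.68 in WKY (unadjusted p = 0.0623, adjusted p = 1.00), 0.58 ± 0.63 in SHR and 0.97 ± 0.47 on average (adjusted p = 0.974). The strain difference of these changes was -0.77 ± 0.93 (95% interval -2.73 to 1.18). M98820_g_at, at or above the 40th percentile on 7 of 15 arrays, gave 0.45 ± 0.61 on average. SHR minus WKY was -0.54 ± 0.47 on M98820_at and 0.07 ± 0.61 on M98820_g_at. On E01884cds_s_at, which was not tested, the values ran from 4.01 in SHR collateral 4 to 7.65 in WKY collateral 2, and WKY collateral was the 1 group with no array below its 20th percentile. There the WKY collateral arrays (6.12 to 7.65) did not overlap with WKY control (4.56 to 5.82), whose 3 arrays all lay below their 20th percentile. Between the same groups 6.7% of all tested probe sets did not overlap.

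Spp1 (M14656_at) had log2 signals of 10.09, 11.39 and 10.81 in WKY control, 11.08, 12.10, 10.45 and 10.35 in WKY collateral, 9.42, 9.83, 9.37 and 12.29 in SHR control and 10.14, 10.29, 8.91 and 10.98 in SHR collateral arteries. SHR control 4 was the highest of all 15 arrays, while the other SHR control arrays lay under every WKY array. SHR minus WKY was -0.73 ± 0.43 (adjusted p = 0.555) and -1.07 without SHR control 4. Collateral minus control was 0.04 ± 0.43. Spp1 was high on SHR control 4 and SHR collateral 4, the arrays on which most other members were low.

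**Figure D2:**
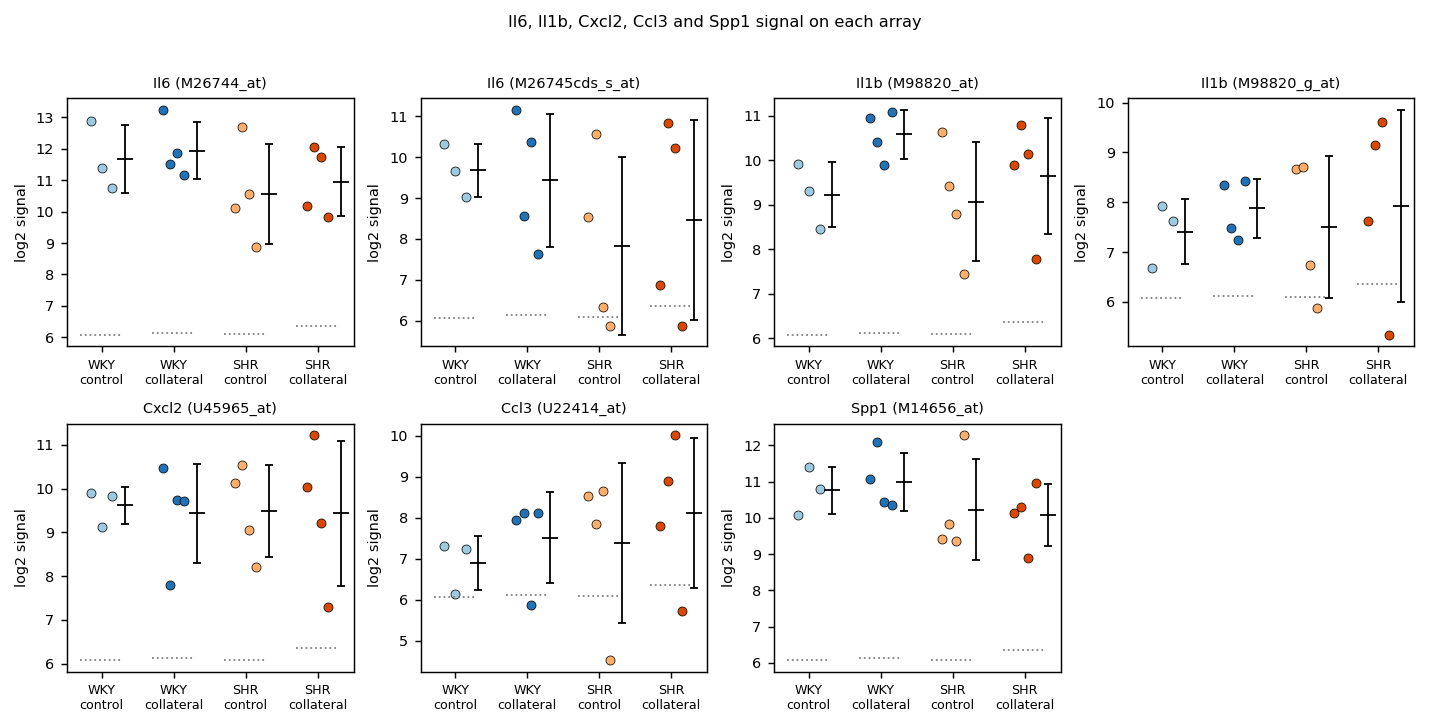
Log2 signal of the 7 tested Il6, Il1b, Cxcl2, Ccl3 and Spp1 probe sets on each of the 15 arrays (points, by group), with group mean ± SD (black bars) and the group's median of the arrays' 20th percentiles (dotted lines). Control and collateral arteries of a strain overlap on each of the 7, as do the strains within a vessel type. On Il6 M26745cds_s_at the SD is 2.18 in SHR control (5.86 to 10.58), 2.45 in SHR collateral, 0.65 in WKY control and 1.62 in WKY collateral arteries.

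Counted together, 0 of the 12 tested member probe sets passed the adjusted threshold of 0.05 in any of the 7 comparisons with limma. For SHR minus WKY averaged over vessel types, 0.891% of all tested probe sets passed, 25 higher and 33 lower (10 higher and 21 lower with equal array medians). At an unadjusted p under 0.05, 2 members were lower, both of Cx3cl1, and 11.9% of all probe sets differed. That count was 5 without SHR control 2 or SHR collateral 3, 4 without SHR collateral 2, and 1 without SHR collateral 4 or WKY control 1. It was also 5 with equal array medians and 5 with array weights. Of the 12 differences, 10 lay below 0 and 2 above, with a median of -0.60 against 0.07 over all tested probe sets. Between 9 and 11 lay below 0 and the median stayed between -0.74 and -0.45 under every alternative run.

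In control arteries 2 members were lower in SHR at an unadjusted p under 0.05, both of Cx3cl1, against 6.46% of all probe sets, and 0.0307% of all passed the adjusted threshold. That count was 4 without SHR control 2 and 1 without WKY control 1 or 3. The members' median was -0.62 against 0.02 over all. Groups did not overlap for 2 members, Cx3cl1 AF030358_g_at and rc_AA800602_s_at, and for 8.57% of all probe sets. In collateral arteries 1 member was lower, Cx3cl1 AF030358_g_at, against 7.62% of all, with 0% past the adjusted threshold. The median was -0.51 against 0.12, and groups did not overlap for 0 members and 3.62% of all. That single Cx3cl1 count became 0 without SHR collateral 3, SHR collateral 4 or WKY collateral 1.

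For collateral minus control averaged over strains, 2 members were higher at an unadjusted p under 0.05, both of Ccl2, against 5.11% of all probe sets, and 0% of all passed the adjusted threshold. Here 9 members lay above 0 and 3 below, with a median of 0.26 against 0.04. The count was 1 without any 1 of SHR control 3 or 4, SHR collateral 3, WKY collateral 1, or WKY control 2 or 3. In WKY 0 tested members reached an unadjusted p under 0.05, against 3.16% of all, with 0% past the adjusted threshold. The median was 0.25 against 0.00, and groups did not overlap for 0 tested members and 6.7% of all. Between 0 and 3 members reached an unadjusted p under 0.05 in WKY when an array was left out, the most without WKY control 1.

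In SHR 1 member was higher in collateral arteries, Ccl2 X17053mRNA_s_at (unadjusted p = 0.0420), against 3.76% of all probe sets, with 0% past the adjusted threshold. The median was 0.49 against 0.06, and groups did not overlap for 0 members and 1.72% of all. This count dropped to 0 when SHR control 3, SHR control 4, SHR collateral 2 or SHR collateral 3 was left out. The count was also 0 with equal array medians, without the variance trend, with array weights and with only the arrays compared. With the replicate number as a fixed block it was 2. It was 2 when either first SHR array was left out and 3 without SHR collateral 4. The strain difference of the collateral change reached an unadjusted p under 0.05 for 0 members and 1.9% of all, and an adjusted p under 0.05 for 0% of all, with a median of 0.14 against 0.04. It was 1 member without WKY control 2.

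**Figure D3:**
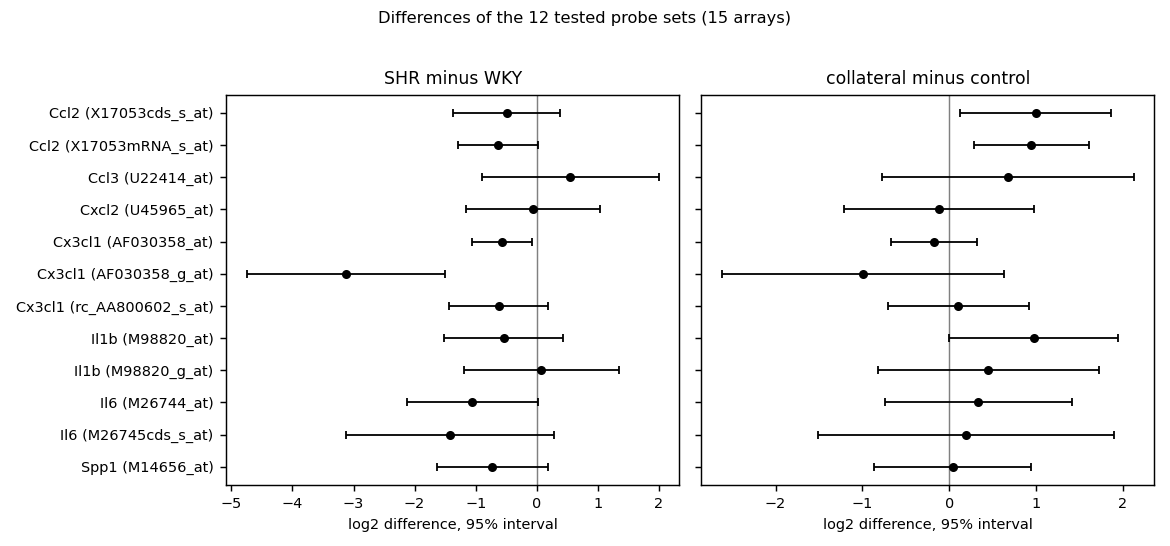
Log2 difference of the 12 tested member probe sets (points) with 95% intervals, for SHR minus WKY averaged over vessel types (left) and collateral minus control averaged over strains (right). Cx3cl1 AF030358_g_at lies farthest from 0 on the left at -3.13, and on the right only the intervals of the Ccl2 probe sets lie wholly above 0.

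Within groups, the same arrays were often low or high for several members. SHR collateral 4 had the lowest value of its group for 11 of the 12 tested member probe sets and for 40.1% of all tested probe sets. Its median deviation from the group mean was -1.49 log2 units over the members and -0.24 over all, and its median log2 signal over the array was 7.93, the lowest of the 15 arrays. SHR control 4 was lowest of its group for 9 of the 12 members and for 22.8% of all, with median deviations of -1.48 and 0.10. WKY control 1 was highest of its group for 9 of the 12 members and for 29.1% of all. Spp1 was the highest of its group on both of the low arrays, and Cx3cl1 AF030358_at was also highest on SHR control 4. Equal replicate numbers in SHR are not given as pairs by the labels, and the deviations of SHR control 4 and SHR collateral 4 over all probe sets had a correlation of -0.07.

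**Figure D4:**
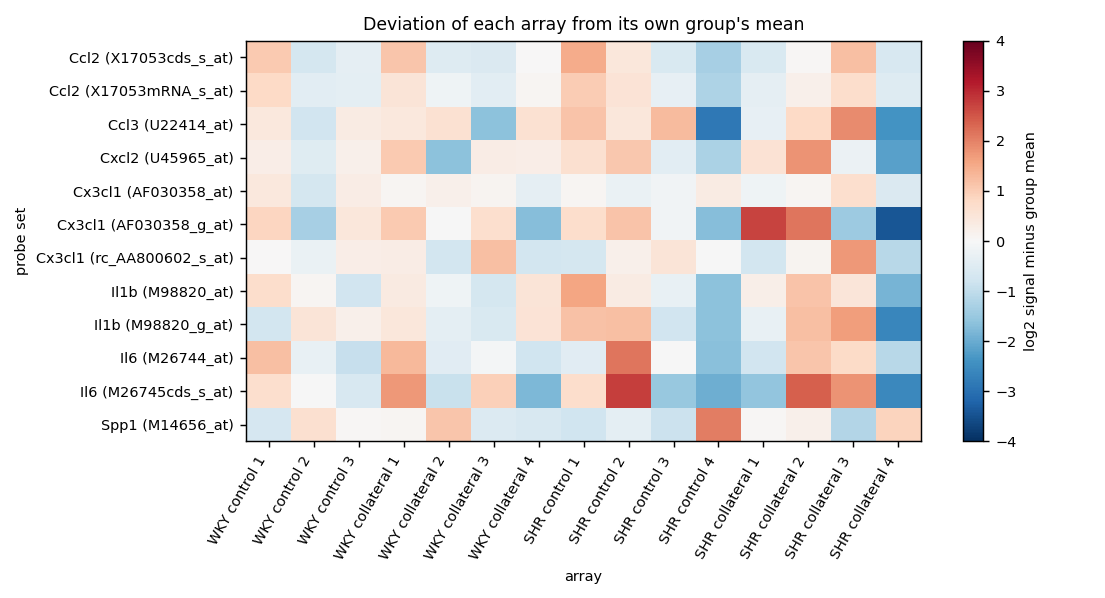
Deviation of each tested member probe set from its group mean (log2 units), array by array. SHR control 4 and SHR collateral 4 lie below their group means for 10 and 11 of 12 probe sets, and Spp1 runs the other way on both.

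Genes whose order over the 15 arrays was most like a member's were named by Spearman correlation, as a description in which arrays share group, labelling and scaling. Ccl2 and Il1b were each among the closest to the other, at 0.87. Il6 was closest to Myc (0.94), Egr1 (0.81) and Ier3 (0.80), which encode a proliferation factor and 2 products of early response genes. Besides Ccl2, Il1b was closest to Timp1 (0.80), an inhibitor of metalloproteinases, and Ddah1 (0.74). Besides Il1b, Ccl2 was closest to Hnrnpa1 (0.87) and Gadd45a (0.79).

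Ccl3 was most like Lgals3bp (0.89), Eef2 (0.89) and Cox4i1 (0.86), and Cxcl2 most like Lox (0.83), the collagen crosslinking enzyme, Pnrc1 (0.77) and Pggt1b (0.76). Cx3cl1, through rc_AA800602_s_at, its brightest probe set, was most like Accs (0.86), Gabrg1 (0.83) and Rph3al (0.82). Spp1 was most like Ddx50 (0.87), Atosb (0.86) and Celf1 (0.85). Of these 21 places, 15 remained among the closest 3 without SHR collateral 3 and 13 by Pearson correlation.

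The rest of the chemokine system was described through lists of genes written with earlier results of these data known. Of 26 other chemokine ligands listed, 11 were on the array and 8 were tested. Of these, 0 passed limma's adjusted threshold. For SHR minus WKY 1 was higher at an unadjusted p under 0.05, while 11.9% of all probe sets differed. It was Pf4, a platelet chemokine, at 1.20 ± 0.32 (adjusted p = 0.0886). The median of the ligands was 0.25 for SHR minus WKY and 0.01 for collateral minus control, against 0.07 and 0.04 over all tested probe sets. Among 7 tested chemokine receptors (of 17 listed), 0 reached an unadjusted p under 0.05 in either comparison, beside 11.9% and 5.11% of all probe sets. Their medians were 0.31 and 0.44. The neutrophil receptor Cxcr2, which binds Cxcl2, stood at 0.31 ± 0.57 and 0.76 ± 0.57, and Ccr1, which binds Ccl3, at 0.71 ± 0.37 and 0.52 ± 0.37.

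Of 28 other interleukins and cytokines, 17 were tested and 0 passed the adjusted threshold. At an unadjusted p under 0.05, Mif, a macrophage factor, was higher in SHR at 0.45 ± 0.17 and Il4 lower at -1.30 ± 0.58. Of all probe sets 11.9% differed in that comparison. Il4 was dim, with a mean log2 signal of 5.83 in SHR control arteries. Il3 was higher in collateral arteries at 1.18 ± 0.54, beside 5.11% of all probe sets. Without SHR collateral 3 the list had 0 genes higher in collateral arteries. Of 37 cytokine receptors and signal chains, 18 were tested and 0 passed. Jak1, a kinase of cytokine receptors, stood at 1.28 ± 0.55 for SHR minus WKY, and Stat3, the transcription factor used by Il6, at -0.75 ± 0.31 for collateral minus control (adjusted p = 0.923). Of 8 osteopontin receptors 3 were tested, and 0 passed. Cd44 and the integrin chain Itgav stood at 1.23 ± 0.51 and 1.24 ± 0.56 for collateral minus control (adjusted p = 0.923 and 0.949), and Itgb1 at -0.92 ± 0.29 for SHR minus WKY (adjusted p = 0.177). At an unadjusted p under 0.05, 2 osteopontin receptors were higher in collateral arteries, and 1 without SHR collateral 3. Itgav was dim in control arteries, at a mean log2 signal of 5.77 in SHR and 5.81 in WKY. Jak1 was dim in WKY collateral arteries, at 5.92.

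The list of NF-kappaB subunits, inhibitor and induced genes, written with earlier results of these data known, had 4 genes lower in SHR past the adjusted threshold and 0 higher, of 14 tested and 20 listed, while 0.891% of all tested probe sets passed. The lower calls numbered 2 with the replicate number as a random block of estimated correlation. Of the 14 differences 13 lay below 0, with a median of -1.05 against 0.07 over all tested probe sets. The 4 were Vcam1, an adhesion molecule for monocytes, at -2.40 ± 0.46 (adjusted p = 0.0121), the transcription factor Irf1 at -1.66 ± 0.29 (adjusted p = 0.00643), the NF-kappaB subunit Nfkb1 at -1.23 ± 0.28 (adjusted p = 0.0376) and the adhesion molecule Icam1 at -1.33 ± 0.31 (adjusted p = 0.0431), the last named after its value was seen. At an unadjusted p under 0.05, 9 were lower and 1, the urokinase receptor Plaur, was higher at 0.72 ± 0.30, beside 11.9% of all probe sets in either direction. The inhibitor Nfkbia stood at -0.95 ± 0.34 (adjusted p = 0.240).

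The median of that list stayed between -1.20 and -0.82 under every alternative. Its lower calls were fewer under several: 2 with quantile normalization or equal array medians and 1 without the variance trend, against 5 with array weights. They numbered 4 without SHR collateral 3, 2 without SHR control 2 or 3, SHR collateral 1 or 2, WKY control 3 or WKY collateral 1, 2 or 3, and 1 without WKY control 1. For collateral minus control the list's median was -0.29 against 0.04 and 0 genes passed, with Plaur at 1.25 ± 0.30 (adjusted p = 0.652) and Irf1 at -0.78 ± 0.29 (adjusted p = 0.873). Cxcl2 and Il6, whose windows held the kappaB-type letters, had strain differences of -0.07 ± 0.52 for Cxcl2 and of -1.05 ± 0.51 and -1.42 ± 0.81 on the Il6 probe sets. Cx3cl1, with no match in its window, had -3.13 ± 0.77, -0.58 ± 0.23 and -0.63 ± 0.39 on its probe sets. Any link between the letters and these differences was not tested.

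**Figure D5:**
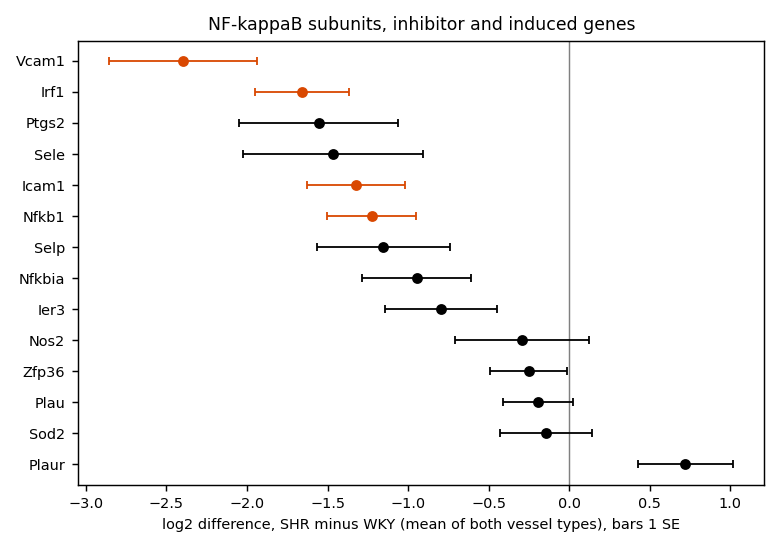
Log2 difference, SHR minus WKY averaged over vessel types, of the 14 tested genes of the NF-kappaB list (points) with bars of 1 SE. The 4 genes past the adjusted threshold are in orange, and 13 of the 14 lie below 0.

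Markers of monocytes and macrophages, cells that Ccl2 and Cx3cl1 recruit, lay on the other side. Of 14 listed 8 were measured, and their summed signal was 5800 to 45500 in SHR control, 17100 to 31800 in SHR collateral, 3510 to 6200 in WKY control and 4900 to 19500 in WKY collateral arrays. Of 6 tested, all lay above 0 for SHR minus WKY, with a median of 1.46 against 0.07 over all tested probe sets. Beside 0.891% of all probe sets, 2 of the 6 passed the adjusted threshold, Cd74 at 3.52 ± 0.61 and C1qb at 2.21 ± 0.47. The others were Lyz2 at 1.84 ± 0.47, Aif1 at 1.07 ± 0.41, Cd14 at 0.54 ± 0.26 and C1qc at 0.07 ± 0.34, so the markers were not raised evenly. The integrin Itgam, a marker of the lineage, lay below the 20th percentile on most arrays. For collateral minus control the median of the tested markers was 0.33 against 0.04 over all. At an unadjusted p under 0.05, 1 was higher, beside 5.11% of all probe sets. Of 6 neutrophil markers 2 were measured, and their sums ranged from 35.7 to 3470 within SHR collateral arrays alone. The part of these cells in the members' levels was not tested.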

How the data were processed

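Per the submitters' processing notes, the authors made the deposited signal values, 1 per probe set and array, with GCOS and MAS5; for neither is a version given in the sources used here. Scaling had been applied before deposit, with trimmed means (2%) of 979 to 991.4 on the 15 arrays, which makes arrays comparable only if total RNA was alike. Per the labels' protocols, RNA was purified with a fibrous tissue kit and labelled from small amounts.

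Values under 1 (12 in all) were raised to 1 before log2 was taken. Array controls (59 probe sets) were left out. Testing required 3 or more arrays on which the probe set reached that array's 40th percentile, which left 6512 of 8740. Symbols came from the platform annotation: 7006 probe sets had 1 symbol, 308 several and 1426 none, and 191 of the unnamed have IDs that the annotation used here does not list. Of the named, 6985 were matched by gene identifier and 0 differed.

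limma 3.58.1 (R 4.3.3) fitted a mean per group over all 15 arrays, with a variance trend and Benjamini-Hochberg adjustment over all tested probe sets (two-sided, 0.05); 7.19 prior and 11 residual degrees of freedom were used. The fit was tested on simulated data. Members and lists were chosen with earlier results of these data known. List genes were named at an unadjusted p under 0.05 in an averaged comparison, at most 3 a list and comparison, from the brightest probe set of each gene. The 3 genes most like a member were taken by Spearman correlation. Figures and promoter searches used Python 3.11.15, pandas 2.3.3 and matplotlib 3.10.9.

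The scaling was varied (quantile normalization or equal array medians), as were the low end (a constant in place of the floor), the filter (none, or the 60th percentile), the variance trend (none), the array weights, the arrays entering a fit (only those compared, or all but 1) and the replicate number. The number entered as a fixed block shared by both strains, called the replicate block, or as a random block within each strain. The counts of the gene lists without SHR collateral 3 and under each alternative were added after seeing the data.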

Additional observations from a re-analysis of the deposited data

Results flagged for a closer look

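In 3 of 39 pairs of a group of 4 arrays and a member probe set, 1 array lay far from the other 3 by Dixon's ratio, where chance gives about 1 in 20. Ccl3 (U22414_at) had a log2 signal of 5.87 on WKY collateral 3, against 7.96 to 8.13 on the other WKY collateral arrays. Il1b (E01884cds_s_at), the probe set that was not tested, had 4.91 on SHR control 3, against 5.80 to 5.88 in the rest of its group. Spp1 (M14656_at) had 12.29 on SHR control 4, against 9.37 to 9.83 on the other SHR control arrays.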

How the results depend on the processing

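Of 84 member differences (12 probe sets in 7 comparisons), 48 kept their sign under every alternative run, and 46 of 790 values under alternatives other than leaving out an array turned sign. All 84 differences had failed the adjusted threshold in the main fit, whether or not they turned. Under any alternative 0 members reached that threshold in 6 of the 7 comparisons. In SHR minus WKY averaged over vessel types the count of members past it rose from 0 to 1 under some alternatives, in each case Cx3cl1 AF030358_g_at. This happened with a constant of 68.5 added before log2 (difference -2.62, adjusted p = 0.0345), with the fixed replicate block (-2.75, adjusted p = 0.0118), and when an array was left out (counts 0 to 1). The fixed block joined arrays of equal number across both strains, so it is not a pairing within a strain. The cause of these rises was not tested. Over all tested probe sets that comparison had 58 calls, and 31 with equal array medians, 34 without the variance trend, 184 with array weights, 134 with the replicate block and 30 to 101 when an array was left out. Equal array medians moved the median over all probe sets from 0.12 to -0.12 in collateral arteries, from 0.07 to -0.07 averaged over vessel types, and from 0.06 to -0.12 for SHR collateral minus control. In control arteries the calls over all probe sets ran from 0 to 14, and in collateral arteries from 0 to 26. Equal replicate numbers did not deviate together in SHR (correlations -0.07 to 0.08) and did so in part in WKY (0.016 to 0.306), so the number is not taken as a pairing; the random replicate block had a consensus correlation of 0.0945 and changed no count of member calls past the adjusted threshold, while calls over all probe sets averaged over vessel types went from 58 to 49. The fit on only the arrays compared equals the main one for comparisons that use all 4 groups and gives no value there. The median standard error of the members was 0.49 for each averaged comparison, against 0.37 over all tested probe sets. It was 0.98 against 0.73 for the strain difference of the collateral change. Groups held 3 or 4 arrays, and the part of signal over background in this precision was not tested.

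With quantile normalization the differences that turned sign were, in SHR minus WKY in collateral arteries Il1b M98820_g_at (-0.040) and Cxcl2 (-0.080), in SHR minus WKY averaged over vessel types Il1b M98820_g_at (-0.005), in collateral minus control averaged over strains Spp1 (-0.084) and in the strain difference of the collateral change Ccl2 X17053mRNA_s_at (0.077). With equal array medians the differences that turned sign were, in SHR minus WKY in collateral arteries Il1b M98820_g_at (-0.184) and Cxcl2 (-0.233), in SHR minus WKY averaged over vessel types Il1b M98820_g_at (-0.064), in SHR collateral minus control Cx3cl1 AF030358_at (-0.004), in collateral minus control averaged over strains Spp1 (-0.038) and in the strain difference of the collateral change Il6 M26744_at (-0.075), Ccl3 (-0.099) and Cxcl2 (-0.058). With the added constant the differences that turned sign were, in SHR collateral minus control Cxcl2 (0) and in the strain difference of the collateral change Il1b M98820_g_at (0.055). With array weights the differences that turned sign were, in SHR minus WKY in control arteries Cxcl2 (0.110), in SHR minus WKY in collateral arteries Il1b M98820_g_at (-0.373), in SHR minus WKY averaged over vessel types Il1b M98820_g_at (-0.093) and Cxcl2 (0.236), in SHR collateral minus control Cx3cl1 AF030358_g_at (0.713), Spp1 (0.130), Il6 M26744_at (-0.358), Il6 M26745cds_s_at (-0.731), Il1b M98820_g_at (-0.108), Cx3cl1 rc_AA800602_s_at (-0.033) and Cxcl2 (0.118), in collateral minus control averaged over strains Il6 M26744_at (-0.056), Il6 M26745cds_s_at (-0.634) and Cx3cl1 rc_AA800602_s_at (-0.257) and in the strain difference of the collateral change Spp1 (0.053), Il6 M26744_at (-0.603), Il6 M26745cds_s_at (-0.194), Ccl3 (-0.710) and Ccl2 X17053cds_s_at (-0.472). With the replicate block the differences that turned sign were, in SHR minus WKY in control arteries Il1b M98820_at (0.175) and Cxcl2 (0.213), in SHR minus WKY averaged over vessel types Cxcl2 (0.110), in WKY collateral minus control Spp1 (-0.025), Il6 M26745cds_s_at (0.459) and Cxcl2 (0.159), in collateral minus control averaged over strains Spp1 (-0.087) and Cxcl2 (0.056) and in the strain difference of the collateral change Cx3cl1 AF030358_g_at (-0.035), Il6 M26744_at (-0.271), Ccl3 (-0.413) and Cxcl2 (-0.206).

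The other turns of sign came from leaving out 1 array. For the strain difference of the collateral change the range was -0.301 to 0.719 for Ccl2 X17053cds_s_at, -0.426 to 0.328 for Ccl2 X17053mRNA_s_at, -0.853 to 0.898 for Ccl3, -0.182 to 1.865 for Cx3cl1 AF030358_g_at, -0.451 to 0.863 for Cxcl2, -0.598 to 0.828 for Il1b M98820_g_at, -0.476 to 0.842 for Il6 M26744_at and -0.696 to 0.306 for Spp1. For SHR collateral minus control the range was -0.231 to 1.520 for Ccl3, -0.046 to 0.365 for Cx3cl1 AF030358_at, -1.541 to 0.506 for Cx3cl1 AF030358_g_at, -0.028 to 0.918 for Cx3cl1 rc_AA800602_s_at, -0.643 to 0.672 for Cxcl2, -0.133 to 1.293 for Il1b M98820_g_at, -0.162 to 1.113 for Il6 M26744_at, -0.160 to 1.555 for Il6 M26745cds_s_at and -0.448 to 0.538 for Spp1. For SHR minus WKY in collateral arteries the range was -0.039 to 1.391 for Ccl3, -0.758 to 0.218 for Cx3cl1 rc_AA800602_s_at, -0.589 to 0.726 for Cxcl2 and -0.505 to 0.921 for Il1b M98820_g_at. For collateral minus control averaged over strains the range was -0.185 to 0.288 for Cx3cl1 rc_AA800602_s_at, -0.417 to 0.240 for Cxcl2, -0.203 to 0.654 for Il6 M26745cds_s_at and -0.143 to 0.385 for Spp1. For SHR minus WKY in control arteries the range was -0.492 to 0.288 for Cxcl2, -0.681 to 0.386 for Il1b M98820_at and -0.312 to 0.636 for Il1b M98820_g_at. For SHR minus WKY averaged over vessel types the range was -0.363 to 0.294 for Cxcl2 and -0.206 to 0.507 for Il1b M98820_g_at. For WKY collateral minus control the range was -0.540 to 0.351 for Cxcl2, -0.186 to 0.875 for Il6 M26744_at, -0.825 to 0.354 for Il6 M26745cds_s_at and -0.137 to 0.547 for Spp1.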
